A study of Mus musculus with 8 samples.

Results

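Of 126871 regions of open chromatin (peaks) deposited for mouse hematopoietic stem cells (HSCs), 572 were close to shut in young cells and open in old ones. They were chosen by their levels, given as CPM, the counts of a peak per 1000000 counts of its library. The mean had to be below 1 CPM over the 4 young libraries and at least 3 CPM over the 4 old libraries. The 572 peaks made up 0.451% of all peaks. Because these means chose them, their old and young levels are a description, with no test.

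HSCs were sorted from bone marrow of C57BL/6 mice by the surface phenotype LSKCD150+CD48-, that is, lineage-negative cells carrying Sca-1, Kit and CD150 and lacking CD48. The titles give 4 libraries as Old and 4 as Young, and the cell type field names them Old-HSC and Young-HSC. Ages, sex and treatment are not given in the labels, and both groups share strain, tissue and gate. Nothing in the labels ties replicates to separate mice, so the spread between libraries may be technical. Marker genes of HSCs, and of other marrow cells that the gate could hold, were not analysed here, since no annotation of the mm9 build of the files was used.

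HSCs stand at the top of blood formation, and many regulatory elements used in other tissues lie in closed chromatin in them. ATAC-seq reads open chromatin through a transposase that inserts adapters where DNA is exposed, so a closed element gives few reads and an open one gives many. With age HSCs are known to become more numerous in the marrow, to favour myeloid output and to change their chromatin. In a bulk library, more cells with an open element cannot be told apart from a more open element in each cell.

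The libraries held 4200905 to 5129684 counts, so that 1 count was worth 0.195 to 0.238 CPM. By the share of counts in these peaks, old replicate 4 was the lowest old library, and young replicate 2 was the highest young library. The share of a library's counts that fell in the 572 peaks was 0.283%, 0.289%, 0.334% and 0.190% in old replicates 1 to 4. In young replicates 1 to 4 it was 0.0317%, 0.0428%, 0.0308% and 0.0304%.

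The opened peaks were mostly weak in old HSCs, with a short tail of strong ones. The old mean ran from 3.002 to 42.0 CPM with a median of 3.95, and 51.4% of the peaks were under 4 CPM. It was at least 5 CPM at 149 peaks, at least 10 CPM at 19 and at least 20 CPM at 4. The young mean ran from 0 to 0.998 CPM with a median of 0.623. A typical peak rested on 75 counts over the 4 old libraries and 12 over the 4 young ones. At 516 peaks with more than 3 young counts in all, the old mean was a median of 6.49 times the young mean (quartiles 4.80 and 9.95). Young counts numbered 1 to 3 at 45 other peaks and 0 at the last 11.

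The median level over the 572 peaks was 4.29, 4.33, 4.94 and 2.92 CPM in old replicates 1 to 4, and 0.444, 0.601, 0.473 and 0.408 CPM in young replicates 1 to 4. Old libraries 1 to 3 had 83.04%, 84.1% and 94.2% of the peaks at 3 CPM or more, and old replicate 4 had 45.5%. Young libraries were under 1 CPM at 63.6% (replicate 2) to 87.2% (replicate 3) of the peaks. No old library had a peak of the set at 0 counts, while the young libraries had 72 to 113 at 0. All 8 libraries kept to their group's threshold at 67 peaks (11.7%). At 189 peaks old replicates 1 to 3 each reached 3 CPM and old replicate 4 did not.

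**Figure D1:**
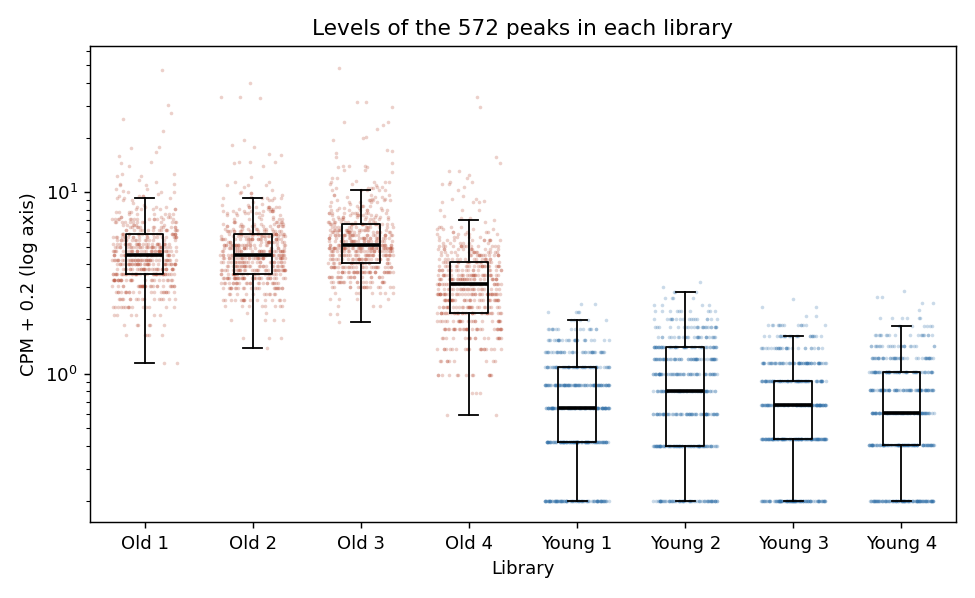
Level of each of the 572 peaks (points) in each of the 8 libraries, as CPM + 0.2 on a log axis, with boxes for the quartiles and a black line for the median. Old 4 sits below the other old libraries, with a median of 2.92 CPM against 4.29 to 4.94, and above the young ones at 0.408 to 0.601.

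All 4 old libraries lay above all 4 young libraries at 529 of the 572 peaks (92.5%), where 7.84% of all deposited peaks had that order. A filter on low counts kept 404 of the 572 peaks for edgeR's quasi-likelihood test across 73164 peaks. Of these 404 it called 401 higher in old and 0 lower (Benjamini-Hochberg adjusted p below 0.05), where 10% of all tested peaks were called higher. The rule used the same libraries, so nothing is read from either count. The other 168 peaks did not reach the filter's minimum in enough libraries and were not tested in that fit. Without old replicate 4, 528 of the 572 passed the filter, against 376 to 413 without another old library.

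The peak with the highest old level was chr7:6680473-6681765 (mm9), 1293 bases wide. Old replicates 1 to 4 had 46.7, 39.9, 48.4 and 33.1 CPM there, and young replicates 1 to 4 had 0.444, 0.401, 0 and 0.612 CPM. The old mean of 42.0 ± 6.95 CPM was 115 times the young mean of 0.364 ± 0.259 (SD, n = 4 each). It had 7 other deposited peaks within 250000 bases, the nearest of them 71 bases away.

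Next in level was chr2:107071603-107072306, the most even of the strong peaks. Its 4 old libraries had 29.99, 32.8, 31.4 and 29.4 CPM, so that old replicate 4 stood at 0.937 of the mean of the others. The young libraries had 0.665, 0.2003, 1.18 and 0.408 CPM, and the old mean was 50.4 times the young mean. Its nearest deposited peak was 53564 bases away.

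A pair of peaks on chromosome 14, chr14:43767117-43768446 and chr14:43846302-43847694, came next and showed the opposite pattern. The first had 25.2, 33.2, 29.2 and 9.36 CPM in old replicates 1 to 4 and 0 to 0.444 CPM in the young libraries. The second had 27.1, 33.4, 31.4 and 10.9 CPM in the old libraries and 0.222 to 0.408 CPM in the young. Old replicate 4 thus stood at 0.320 and 0.356 of the other old libraries, still far above every young one.

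The fifth was chr15:91881356-91882503, with 21.4, 18.1, 23.2 and 14.2 CPM in the old libraries and 0.2003 to 0.709 CPM in the young. On chromosome 1, chr1:115935941-115936713 had 17.6, 14.4, 24.3 and 15.4 CPM in the old libraries and 0 to 0.946 CPM in the young. Old replicate 3 was the highest at both.

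At chr15:88126291-88126898 the old libraries had 17.4, 17.5, 22.1 and 12.3 CPM. The young libraries there were uneven, with 0.222, 0.2003, 0.946 and 2.24 CPM, and young replicate 4 was over the limit that the mean had to meet. The eighth peak, chr7:77418788-77419597, had 14.3, 14.6, 24.1 and 12.9 CPM in old libraries and 3 counts in all in young ones. Its ratio of old to young was 102, with a 95% exact binomial interval of 34.5 to 495 that covers counting error only.

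At 11 peaks no young library had a count. Against a floor of 3 counts over the young group, chr5:103622564-103623288 was at least 53.4-fold higher in old libraries, which had 5.71, 8.06, 13.5 and 7.02 CPM. The peaks chr8:29805575-29806121 and chr8:29783682-29784146 lay 21428 bases apart, and both were at 0 in every young library. The first had 5.24, 9.04, 10.5 and 1.56 CPM in old replicates 1 to 4 (at least 40.7-fold higher) and did not pass the count filter for edgeR. The second had 5.24, 8.65, 6.45 and 3.12 CPM (at least 36.5-fold higher). At chr5:127018358-127018963 the old libraries were close together, at 6.67, 5.51, 5.59 and 4.48 CPM (at least 34.2-fold higher).

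At the limits of the rule the set had no clear edge. Just inside the young limit were chr4:95351392-95351879, with young and old means of 0.998 and 3.82 CPM, and chr2:49503588-49504123, with 0.997 and 5.69. Just outside it were chr13:73418167-73418680, with 1.0 and 3.27 CPM, and chr5:104630601-104631291, with 1.001 and 4.28. At the old limit, chr17:25599448-25599819 and chr4:65152612-65153036 were inside with an old mean of 3.002 CPM each, and chr7:146334205-146334463 and chr17:58727398-58727710 were outside with 2.999 and 2.998. The peak inside on chromosome 17 ranged from 0.780 to 5.59 CPM over the old libraries, and the one outside on chromosome 7 only from 2.75 to 3.22.

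To read each library where it had no part in the choice, the rule was applied to the other 7 libraries and the library left out was then measured. Old replicates 1 to 3, left out in turn, had medians of 4.05, 4.33 and 4.73 CPM at the peaks so chosen, and were above all young libraries at 97.2%, 98.4% and 98.8% of them. Left out, old replicate 4 had a median of 2.34 CPM over 734 peaks and was above all young libraries at 85.97% of them. Young replicates 1 to 4, left out in turn, had medians of 0.665, 1.002, 0.709 and 0.612 CPM. They were below all old libraries at 94.4%, 88.5%, 92.3% and 94.4% of the peaks.

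On a scale from 0 at the mean of the remaining young libraries to 1 at the mean of the remaining old ones, the left-out old replicates 1 to 4 stood at 0.999, 1.02, 1.25 and 0.527. The left-out young replicates stood at 0.0531, 0.137, 0.0577 and 0.0466. Every left-out library therefore stood nearer to its own group on this scale, old replicate 4 by a narrow margin. Both ends are means of libraries that the rule used, so the choice itself sets them apart. The peaks and the ends change with the library left out, so the positions are not on 1 common scale. Without old replicate 4, 560 of the 572 peaks were chosen again. Without old replicate 3 the rule chose 494 peaks, of which 469 were among the 572.

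The old libraries differed in which opened peaks they showed most. Old replicate 4 was the lowest old library at 397 of 572 peaks, and its median ratio to the mean of the other old libraries was 0.599 (quartiles 0.429 and 0.815). At 51900 peaks open in both groups (young mean at least 1 CPM and old mean in the range of the set) that ratio was 0.987. At those peaks too, old replicate 4 was more often far from the others, with 2.73% over 2 times the mean of the others and 2.90% under 0.5 of it, where old replicates 1 to 3 had 0.172% to 0.476% and 1.41% to 1.58%. In the set, 36.7% of the peaks were under 0.5. Old replicate 3 was the other way, with a median ratio of 1.27, and stood over 2 times the mean of the others at 59 peaks. Old replicates 1, 2 and 4 did so at 5, 9 and 2 peaks. Across the 572 peaks, Spearman correlations of CPM between old libraries ran from 0.221 (replicates 3 and 4) to 0.498 (replicates 1 and 2). These peaks share libraries and a narrow range of counts.

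**Figure D2:**
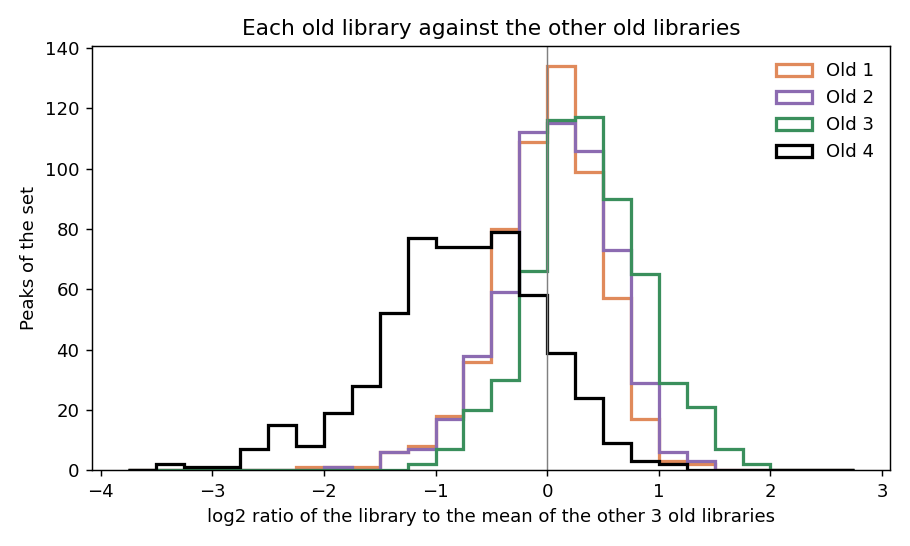
Number of peaks of the set (vertical axis) by the log2 ratio of 1 old library to the mean of the other 3 (horizontal axis), 1 line per old library. The line of Old 4 lies to the left, with a median ratio of 0.599, and that of Old 3 to the right, with 1.27.

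Single peaks departed widely from these medians. The lowest ratios of old replicate 4 were at chr13:111196515-111196811, with 3.81, 4.13, 4.30 and 0.390 CPM in old replicates 1 to 4, and at chr16:41745147-41745531 and chr2:25866753-25867203 (ratios 0.100 and 0.119). In these 3 peaks old replicate 4 was within the range of the young libraries or below it. The highest ratio, 2.18, was at chr11:108128400-108129225, with 4.76, 4.72, 5.80 and 11.1 CPM in old libraries. It was followed by chr3:95570021-95570652 and chr12:65462655-65462961 (ratios 2.098 and 1.92), where old replicate 2 was the lowest with 1.18 and 1.38 CPM.

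The spread among old libraries was wider than at peaks open in both groups in the same range of level, and most of the excess came with old replicate 4. At an old mean of 10 CPM or more, the median coefficient of variation over the 4 old libraries was 0.313 at 19 opened peaks and 0.123 at 20081 peaks open in both groups. Over old replicates 1 to 3 alone it was 0.154 and 0.0996. The median old means in this range differed, at 14.1 and 18.3 CPM, so part of the difference may be one of level. At 3 to under 4 CPM they were close, at 3.40 and 3.46 CPM. The coefficient of variation there was 0.348 against 0.263 over all 4 libraries, and 0.242 against 0.229 over replicates 1 to 3.

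Opened peaks lay mainly where few other peaks were found. The median opened peak had 20 other deposited peaks within 250000 bases (quartiles 7 and 42), and the median of all deposited peaks had 43 (quartiles 28 and 57). Neighbourhoods with at most 25 other peaks, called peak-poor here, held 323 of the 572 (56.5%) and 21.0% of all peaks. The rate fell from 12.1 opened peaks per 1000 deposited peaks there to 3.02 per 1000 where 26 to 37 others were near, and to 1.74 per 1000 where 62 to 114 others were near. In the mirrored set of 455 peaks, near closed in old (mean below 1 CPM) and open in young HSCs (at least 3), the same ends had 2.55 and 4.32 per 1000. Position was not used by the rule. Earlier results of these data had already shown gains in peak-poor regions, so the difference is not independent support for them.

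**Figure D3:**
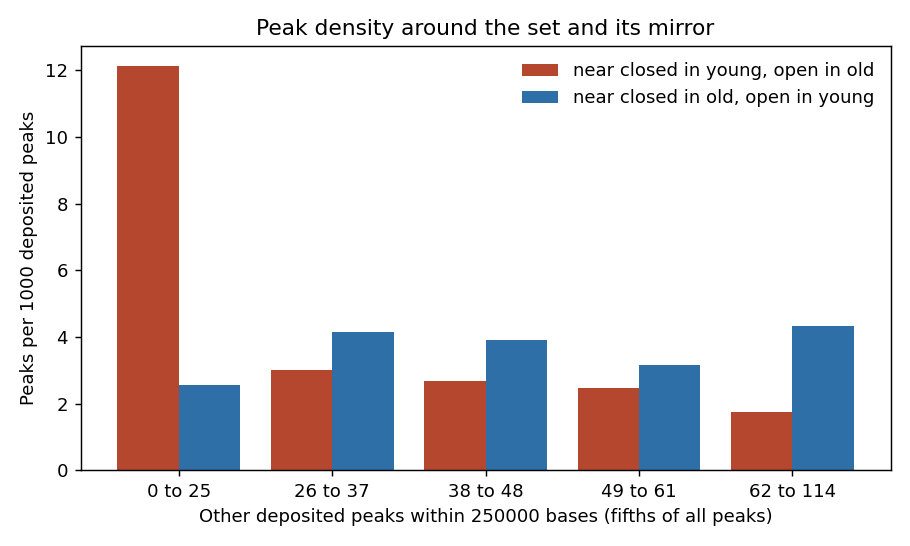
Peaks of the set (red) and of the mirrored set (blue) per 1000 deposited peaks (vertical axis), for 5 groups of deposited peaks by the number of other peaks within 250000 bases (horizontal axis). The red bars fall from 12.1 to 1.74 while the blue ones lie between 2.55 and 4.32.

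The same order held at each level of old accessibility. Of peaks open in old HSCs at 3 to under 4 CPM, 160 of 1760 (9.09%) in peak-poor neighbourhoods were near closed in young, against 22 of 1866 (1.18%) in the densest group. At 4 to under 6 CPM these shares were 5.38% and 0.594%, and at 6 to under 10 CPM 1.92% and 0.110%. From 10 CPM up to 42.0 CPM, the highest old mean of the set, they were 18 of 2849 and 1 of 5034. Of the 19 opened peaks at that level, 18 were therefore in peak-poor neighbourhoods.

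Opened peaks in peak-poor neighbourhoods were emptier in young cells and wider than the other opened peaks. The median young mean was 0.575 CPM at the 323 peaks there and 0.699 at the 249 elsewhere, while the median old means were 4.01 and 3.90 CPM. At most 3 young counts in all were found at 52 of the 323 (16.1%) and 4 of the 249 (1.61%), and 10 of the 11 peaks with no young count were peak-poor. The median width was 507 against 443 bases. The median ratio of old replicate 4 to the other old libraries was 0.616 in peak-poor neighbourhoods and 0.573 elsewhere.

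Opened peaks also tended to lie farther from their nearest neighbour than deposited peaks in general. The median gap from an opened peak to the nearest deposited peak was 5733 bases, against 3029 for all peaks, and 26 (4.55%) were over 100000 bases from any other peak, against 0.808% of all peaks. In the mirrored set 2 of 455 were as isolated. The most isolated was chr1:142141888-142142741, 519198 bases from its neighbour, with 10.95, 6.88, 7.52 and 5.65 CPM in the old libraries and 0.401 to 0.946 CPM in the young. At chr13:71596090-71596487, 351473 bases from the next peak, the old libraries had only 1.95 to 4.33 CPM. Next came chr7:103001828-103002357, 297479 bases away, which had 12.4, 15.9, 19.99 and 5.26 CPM in old libraries and 3 counts in young ones (ratio 82.4, 95% exact binomial interval 27.9 to 402).

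The set was slightly wider than the deposited peaks in general and narrower than peaks open in both groups in the same range of level. Its median width was 471 bases (quartiles 385 and 601), against 408 for all peaks and 405 for the mirrored set. Width rises with level, however, and in each range of old level the opened peaks were narrower than peaks open in both groups. The medians were 421 against 475 bases for peaks open in both groups at 3 to under 4 CPM, 503 against 539 at 4 to under 6, 586 against 650 at 6 to under 10, and 704 against 931 at 10 or more. The top range was not matched in level, with median old means of 14.1 CPM at opened peaks and 18.3 at those open in both groups. Narrowness was not particular to the opened peaks. The mirrored set had medians of 390.5, 440 and 586 bases at young means of 3 to under 4, 4 to under 6 and 6 to under 10 CPM. The 3 widest opened peaks were all on chromosome 14, at 1486, 1393 and 1330 bases. The widest, chr14:43928118-43929603, had 12.4, 16.1, 16.3 and 5.07 CPM in the old libraries and 0.204 to 1.002 CPM in the young.

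The narrowest were chr8:23760769-23760973 at 205 bases, and chr2:34633695-34633904 and chr15:86019585-86019794 at 210 bases each. Their old means were 3.37, 3.50 and 4.96 CPM. Each lay among 54 to 78 other peaks, the opposite setting to that of the strong and wide members.

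Chromosome 8 held the most opened peaks, 55 of the 572 (9.62%), with 4.90% of the deposited peaks. That is 8.84 per 1000 deposited peaks, against 4.51 over all chromosomes. Chromosome 15 followed with 6.71 per 1000, and chromosome 19 had the lowest rate of the autosomes with 1.87. On the X chromosome there were 8 opened peaks, or 2.37 per 1000. The mirrored set had 4.02 per 1000 on chromosome 8 and 3.59 over all.

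**Figure D4:**
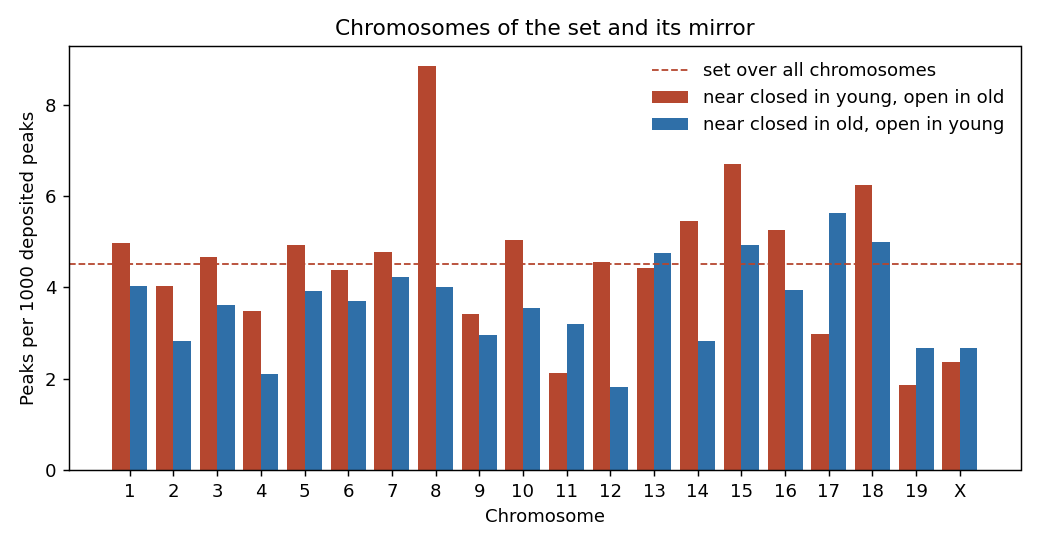
Peaks of the set (red) and of the mirrored set (blue) per 1000 deposited peaks on each chromosome, with the set's rate over all chromosomes as a dashed line at 4.51. Chromosome 8 stands at 8.84 in red and 4.02 in blue.

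The peaks on chromosome 8 were not a single cluster. They fell in 20 windows of 5000000 bases, with at most 8 in one. Many were grouped locally, however. Runs of 2 or more opened peaks with gaps of up to 100000 bases held 27 of the 55, against 114 of the 572 (19.9%) over all chromosomes. Of the 55, 38 were peak-poor, a share of 69.1% where 19.1% of the deposited peaks of that chromosome were. In peak-poor neighbourhoods the rate was 31.9 per 1000 deposited peaks on chromosome 8 and 11.2 elsewhere, and in the remaining neighbourhoods 3.38 and 2.44. Their summed level was 265, 263, 292 and 174 CPM in old replicates 1 to 4 and 27.5 to 34.7 CPM in young libraries. Outside the set, 11.6% of the tested peaks of chromosome 8 were called higher and 9.82% lower, against 9.55% and 10.5% of all tested peaks outside the set. With each library left out of the rule in turn, the chromosome held 8.33% to 10.9% of the peaks chosen.

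Most opened peaks stood alone along the chromosome. The median gap between successive opened peaks was about 2456000 bases, and 305 of 538 windows of 5000000 bases with any deposited peak held at least 1. With gaps of up to 100000 bases, 114 (19.9%) fell into 49 runs of 2 or more, of which 12 had 3 or more and 3 had 4 or more. In the mirrored set 11.0% fell into runs, and none had over 3. The mirrored set is smaller, which by itself makes runs rarer. Without young replicate 2 in the rule, 15.4% of the peaks chosen were in runs.

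The longest run held 5 opened peaks in 96364 bases on chromosome 15, from 91881356 to 91977719, and starts with the fifth peak in order of level. No other deposited peak lay between them. Their summed level was 42.1, 36.8, 51.6 and 37.4 CPM in old replicates 1 to 4 and 0.444, 1.40, 2.84 and 2.86 CPM in young ones. Old replicate 4 stood at 0.861 of the other old libraries here, higher than at most opened peaks.

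A run of 4 on chromosome 8 from 23675930 to 23861949 had a different setting. It shared its 186020 bases with 15 other peaks, of which 9 were tested, 1 was called higher and 3 lower. The 4 opened peaks summed to 13.6, 17.9, 19.99 and 14.2 CPM in the old libraries and 1.66 to 3.47 CPM in the young. The other peaks together had 134 ± 2.60 CPM in old libraries, and 149 ± 7.12 CPM in the young (SD, n = 4 each).

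The other run of 4 lay on chromosome 14 from 42149731 to 42239257, with no other peak between its members. It was made of 2 close pairs, 178 and 42 bases apart, and a further pair 217 bases apart lay at chr14:42712438-42712813 and chr14:42713031-42713853. All 6 had old means of 3.40 to 5.65 CPM and young means of 0.102 to 0.271 CPM. The 3 widest peaks of the set followed at 43767117 to 43929603, spaced 79185 and 81816 bases from start to start. The steps between these groups were not even. They were measured from the start of the second peak of a pair to the start of the next group. The step was 87335 bases from the first pair to the second, 473883 from there to the next pair, and 1054086 from that pair to the first wide peak.

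These 9 peaks and 1 more made the 5000000 bases of chromosome 14 up to position 45000000 the densest window, with 10 opened among 104 deposited peaks. Their sum was 91.9, 119, 109 and 45.0 CPM in old replicates 1 to 4 and 1.84 to 3.99 CPM in young libraries. The windows and this group were picked after their values were seen. Repeated pairs and evenly spaced peaks, as in parts of this group, can share sequence. How reads that match several places were counted is not given in the sources used here, so these 9 levels are uncertain as separate measurements, and a shared sequence was not tested. Without the window, 55.9% of the remaining 562 opened peaks were peak-poor.

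Peaks near an opened peak, but outside the set, also tended to be higher in old HSCs. Of 347 tested peaks within 10000 bases, 100 (28.8%) were called higher and 17 (4.90%) lower in the edgeR fit across all peaks, where 10% and 10.4% of all tested peaks were. Up to 1000 bases away 18 of 39 were higher and 0 lower. The count filter had kept 347 of the 680 deposited peaks within 10000 bases, and 39 of the 108 within 1000. Without the filter 27.9% of the 680 were called higher, where 8.46% of all tested peaks were. The shares were 26.6% higher and 5.52% lower beyond 1000 and up to 10000 bases, 13.7% and 8.11% from there up to 100000, and 9.13% and 10.7% beyond 250000. The median log2 fold change, old over young, fell along these distances from 0.79 to 0.26, 0.09 and 0.00032.

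**Figure D5:**
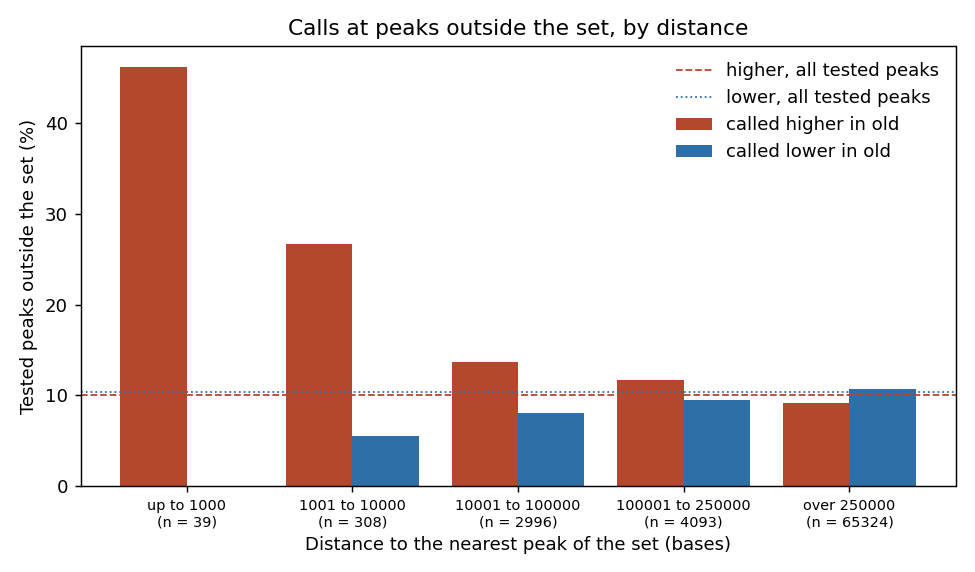
Share of tested peaks outside the set that were called higher (red) or lower (blue) in old HSCs, by distance to the nearest peak of the set, with the shares of all tested peaks as lines. The red bars fall from 46.2% to 9.13% with distance, and the blue ones rise from 0% to 10.7%.

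The pattern was present in both kinds of neighbourhood. In peak-poor ones, 28 of 57 tested peaks within 10000 bases (49.1%) were called higher and 0 lower, against 14.6% and 8.04% at peaks over 250000 bases from any opened peak. These 57 were the tested ones of 199 deposited. Elsewhere the shares within 10000 bases were 24.8% higher and 5.86% lower, against 8.09% and 11.2% far away. Around the mirrored set the directions were exchanged, with 5.78% of 519 tested peaks within 10000 bases higher and 17.7% lower. Neighbouring peaks are read in the same libraries as the members, so these shares do not measure the spread between libraries. Without old replicate 4, 36.9% of the near peaks were higher, where 14.5% of all tested peaks were.

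The nearest peak outside the set was itself usually weak. It lay a median of 6506 bases away. Some peaks were the nearest to more than 1 opened peak, so there were 534 of them, with median levels of 1.11 (young) and 1.78 CPM (old), against 2.66 and 2.51 for all deposited peaks. Counted once each, 213 of the 534 were tested, and 76 were called higher and 7 lower. A peak of the mirrored set lay within 100000 bases of 14 opened peaks (2.45%). Inside the spans of the 49 runs there were 95 other peaks, of which 45 were tested, 11 called higher and 4 lower.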

How the data were processed

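Bulk ATAC-seq libraries (4 old, 4 young) were grouped by their titles. The authors deposited raw counts (whole numbers of reads) for every library over 1 common list of peaks. The submitters' processing notes name Bowtie2, MACS2, Picard, SAMtools, Trim Galore and FastQC, with no versions, and the mm9 build. How peaks were merged, reads counted, their ends shifted and reads with several matches treated is not given in the sources used here. Peaks called on the compared libraries can favour those open in 1 group. Positions are as in the table, and widths count both ends.

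CPM was computed with the total of each column. The old-young contrast was fitted over the whole table in edgeR 4.0.16 (R 4.3.3; TMM, filterByExpr by group with minimum count 10 and minimum total 15, glmQLFit robust, glmQLFTest, group only), with calls at an adjusted p (Benjamini-Hochberg) below 0.05. The same function was tested on simulated data. Neighbours within 250000 bases were counted between midpoints, gaps between edges. Intervals are 95% exact binomial, for counting error only. Ratios against 0 young counts use a floor of 3 counts over the group. Alternatives used DESeq2 1.42.0, limma 3.58.1 voom, other filters, scalings, thresholds and a replicate block, and left out each library.

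The members and lists were chosen with earlier results of these data known. Peaks named are the 8 with the highest old mean, the 4 highest without a young count, 2 on each side of each threshold, the 3 widest, narrowest and most isolated, the 3 at each end of the old replicate 4 ratio, and runs of at least 4. The chromosome 14 group and windows of 5000000 bases were added after values were seen. Gene annotation, promoters and sequences were not analysed here, because the reference tables are of another build.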

Additional observations from a re-analysis of the deposited data

Results flagged for a closer look

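Dixon's 95% limit was applied to 70 sets of 4 values of a group to find a library apart from its group. It was passed in 7 sets, and chance alone passes about 1 in 20, or 3.5. Young replicate 2 was high in its summed level over the 572 peaks, at 428 CPM against 304 to 317 in the other young libraries. The summed level in the old libraries was not among the 7 sets, with 1904 CPM in old replicate 4 against 2827 to 3335 in the others. Old replicate 3 was high at chr7:77418788-77419597, with 24.1 CPM against 12.9 to 14.6. Old replicate 4 was low at chr13:111196515-111196811, with 0.390 CPM against 3.81 to 4.30, and that peak was named for this ratio. At chr11:108128400-108129225, also named for its ratio, old replicate 4 was high with 11.1 CPM against 4.72 to 5.80, and young replicate 2 with 2.20 CPM against 0.473 to 0.665. Young replicate 3 was high at chr1:142141888-142142741, with 0.946 CPM against 0.401 to 0.444, and young replicate 4 at chr12:65462655-65462961, with 0.204 CPM (1 count) against 0. The last 2 rest on a few counts.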

How the results depend on the processing

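The set's size follows its thresholds. It held 149 peaks at an old mean of at least 5 CPM, 209 at a young mean below 0.5 CPM and 67 where every library met its threshold, against 572. With each library left out it held 494 to 734. Median width was then 448 to 481 bases, and 576 at 5 CPM. The median number of neighbours was 20 to 23 with each library left out, 14 at 5 CPM and 12 below 0.5 CPM. The peak-poor share was 61.7% at 5 CPM, 68.9% below 0.5 CPM and 73.1% where every library met its threshold, and 53.2% to 57.1% with each library left out (settings added after the data were seen). Runs held 14.7% of the peaks with gaps up to 50000 bases, 29.6% up to 250000, and 15.4% to 22.3% with each library left out. Of tested peaks outside the set within 10000 bases, 22.1% to 36.9% were higher with each library left out. In those fits 6.84% to 14.5% of all tested peaks were, and the near share was 2.55 to 3.38 times that. By DESeq2's test 19.1% of the near peaks were higher, where it called 5.26% of the peaks it tested higher.

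With each library left out, members called higher ran from 371 of 376 tested (without old replicate 2) to 551 of 558 (without young replicate 3). Across those fits 6.84% to 14.5% of all tested peaks were called higher. Without the count filter 568 of 572 members were, against 8.46% of all tested peaks. No member was called lower in these fits. The rule used the same contrast, so nothing is read from these counts. Each of the 8 strongest peaks was compared with its main result in each alternative fit. The log2 fold change kept its direction and call in 118 of these comparisons, lost the call in 2 and changed direction in 0. The exceptions were chr14:43767117-43768446 and chr14:43846302-43847694, not called by limma voom (6.11 and 5.83, and the cause was not tested). Deviations from the group means in same-numbered libraries correlated at -0.0140 to 0.179. Old replicates 1 and 3 correlated better with another number. Old replicates 2 and 4 correlated best with their own, at 0.0737 against at most 0.0485 and 0.179 against at most 0.0298. With 4 libraries per group, these values cannot settle whether replicate numbers pair the libraries. With the replicate block 403 of 404 tested members and 30.8% of the near peaks were called higher, where 11.1% of all tested peaks were. Counts of 0 to 3 in young libraries limit single ratios.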
